A study of Mus musculus with 18 samples.

Results

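The BH3-only genes encode the small death proteins that start the mitochondrial pathway of apoptosis. The 8 taken here were Bbc3 (Puma), Pmaip1 (Noxa), Bcl2l11 (Bim), Bad, Bid, Bmf, Bik and Hrk, and every probe that the array annotation gives to these symbols was used. This came to 13 of the 46632 probes on the array, and to 8 of 17711 named genes. RNA came from Factor Dependent Myeloid (FDM) cells, mouse myeloid cells transformed with HoxB8 that depend on Interleukin-3 (IL-3), and was hybridized to Illumina MouseWG-6 V1 arrays. There were 6 groups of 3 samples and 18 arrays, namely cells of each genotype (WT or p53-/-) kept in IL-3 (0 h) or deprived of it for 6 h or 18 h. The 3 samples of a group came from 3 independent clones, and all cells of both genotypes carry the HoxB8 transformation. The question is which of these death genes change in mRNA level when the cytokine is lost, and whether cells without p53 differ in this.

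In a cell that is supplied with cytokine, survival proteins such as BCL-2, BCL-XL and MCL-1 hold the pore-forming proteins BAX and BAK in check. BH3-only proteins bind the groove of the survival proteins and block them, and BIM, PUMA and BID can also engage BAX and BAK directly. The genes for PUMA and NOXA are known targets of p53, and those for BIM and PUMA are also known targets of the FOXO forkhead factors, which enter the nucleus when AKT signaling stops.

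Sequence around the transcription start was looked at for the 6 members with a window in the RefSeq table (build GRCm38.p6), each window running from 250 bases before to 50 after a start site. In 12 windows of Bbc3, Bcl2l11, Bad, Bid, Bmf and Hrk, the forkhead core TGTTTAC, searched on both strands, was found in 2, against 3.65% of all 32851 windows of this length. The windows with a match are shown because they belong to the genes of PUMA and BIM, with the match in capitals, and the last one shows the outermost annotated start of Bmf, the member that rose in WT cells, which holds no match. The match lies on the gene's own strand at position -167 from the start in Bbc3, and on the opposite strand (read as GTAAACA) at -227 in Bcl2l11.
Bbc3, chr7:16310011-16310310, plus strand: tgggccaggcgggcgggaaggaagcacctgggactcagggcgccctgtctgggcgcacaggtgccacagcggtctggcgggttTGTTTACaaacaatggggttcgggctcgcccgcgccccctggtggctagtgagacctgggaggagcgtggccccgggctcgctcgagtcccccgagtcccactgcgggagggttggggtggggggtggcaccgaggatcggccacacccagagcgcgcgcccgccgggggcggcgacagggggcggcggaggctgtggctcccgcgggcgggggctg
Bcl2l11, chr2:128125788-128126087, plus strand: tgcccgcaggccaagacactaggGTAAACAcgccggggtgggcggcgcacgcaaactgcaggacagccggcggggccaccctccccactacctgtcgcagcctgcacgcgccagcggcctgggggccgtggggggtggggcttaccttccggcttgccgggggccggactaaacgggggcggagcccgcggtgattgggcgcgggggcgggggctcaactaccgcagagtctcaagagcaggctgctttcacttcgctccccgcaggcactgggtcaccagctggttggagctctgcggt
Bmf, chr2:118549637-118549936, minus strand: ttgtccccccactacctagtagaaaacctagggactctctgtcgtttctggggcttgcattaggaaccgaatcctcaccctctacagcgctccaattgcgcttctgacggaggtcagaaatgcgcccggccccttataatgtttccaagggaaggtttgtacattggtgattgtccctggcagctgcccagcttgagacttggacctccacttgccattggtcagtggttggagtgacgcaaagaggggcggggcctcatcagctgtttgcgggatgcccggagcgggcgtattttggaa
The E-box CACGTG, a site for MYC, was in 1 of the 12 windows, another start of Bbc3 at chr7:16310181-16310480, and in 7.15% of all windows. The AP-1 site TGACTCA was in 0 of the 12 and in 5.2% of all windows. A match is a run of letters and was not tested as a binding site.

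Probe intensity had a median of 122.1 to 175.2 on 17 arrays, and 30.69% to 34% of probes were detected (detection p under 0.01). The p53-/- array of clone 3 at 18 h stood apart, with a median of 102.9, 27.01% of probes detected and a weight of 0.0905 in the model, against 0.467 to 4.34 for the other arrays. The targeted gene was not analysed here, so genotype rests on the labels, and the known p53 target Cdkn1a (p21) was lower in p53-/- cells by log2 changes of -3.02, -2.05 and -2.62 at 0, 6 and 18 h (adjusted p = 0.00304, 0.00353 and 0.00184). Ccng1 was lower at each time too, by -1.38, -1.02 and -1.41, and Mdm2 did not pass. These genes and the markers below were each read on 1 probe, the brightest. The cells are labelled as myeloid progenitors, and 6 or 7 of 10 progenitor markers were detected on all 3 arrays of every group. The brightest of the 3 probes for Kit, a receptor that defines such progenitors, was detected on only 1 of 18 arrays. Markers of other lineages were compared between genotypes. Of all kept probes 4.33%, 8.05% and 7.43% were called between genotypes in either direction at 0, 6 and 18 h. Of 4 mast cell and basophil markers 2 (Cpa3 and Fcer1a) were called lower in p53-/- cells at 0 h and at 6 h and 0 at 18 h. The p53-/- group at 18 h holds the array of low intensity, and Cpa3 was at 10.97 ± 2.38 (SD, n = 3) there. Adgre1, the 1 macrophage marker kept, was called lower at 0 h and 6 h. Of 3 erythroid markers 0 were called, with median log2 differences of 3.55, 3.82 and 4.36. The summed normalized intensity of the mast cell and basophil markers was 24900 to 38010 in WT and 3827 to 21150 in p53-/- samples, that of the erythroid markers was 153.3 to 7908 in WT and 6115 to 45270 in p53-/- samples, and that of Adgre1 was 536 to 3368 in WT and 24.51 to 324.6 in p53-/- samples. Cd3g, a T cell receptor chain, was detected on 0 of 9 WT and 6 of 9 p53-/- arrays, and was called higher in p53-/- cells at 6 h and 18 h. A probe was tested only if at least 1 array detected it. Cd3g met this through p53-/- arrays alone, so a difference between genotypes was favoured by the filter. Cd3e, another T cell receptor chain, was detected on 0 of 18 arrays, as was the B cell marker Cd79a, and the B cell marker Pax5 on 1. In such bulk samples fewer cells of a type and less RNA per cell cannot be told apart. The part of these markers in the differences between genotypes given below was not tested.

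Levels are background-corrected, quantile-normalized log2 intensities. A probe was kept if it was detected on at least 1 array, and 10 of the 13 probes and 7 of the 8 genes were kept. A change passed when its p-value, adjusted over all 21413 kept probes, was 0.1 or lower and the B statistic, the log odds that the probe changed, was positive. Changes were estimated with limma from 1 model of all 18 arrays in which unreliable arrays count for less, so a log2 change can differ from the difference between plain group means. A change whose adjusted p met the limit but whose B was negative is described as failing on B. Where groups are said not to overlap, or every clone to lie above or below another group, this only describes the values. An exact permutation test of 3 against 3 gives no p below 0.1 for such a separation. The share of all kept probes that separate in this way was not computed.

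Of the 8 genes, 3 passed in at least 1 of 12 comparisons, in which 0.014% to 18.2% of all kept probes were called. Each of these shares is for 1 comparison. The share called in any of the 12 was not computed and is at least 18.2%, so the 3 genes cannot be set against it. Bmf rose in WT cells after 18 h without IL-3. No array at 0 h detected its probe, so it was kept through arrays without IL-3 alone, and its tests against 0 h are not independent of that filter. Pmaip1 fell in p53-/- cells within 6 h, stayed lower at 18 h, and was lower in p53-/- than in WT cells at 6 h. Bik was higher in p53-/- than in WT cells at 6 h and at 18 h. Its probe was undetected on every WT array, so it was kept through p53-/- arrays alone, and the tests of this gene between genotypes are not independent of that filter. No comparison called Bbc3, Bcl2l11, Bad or Bid, and Hrk was not detected.

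**Figure D1:**
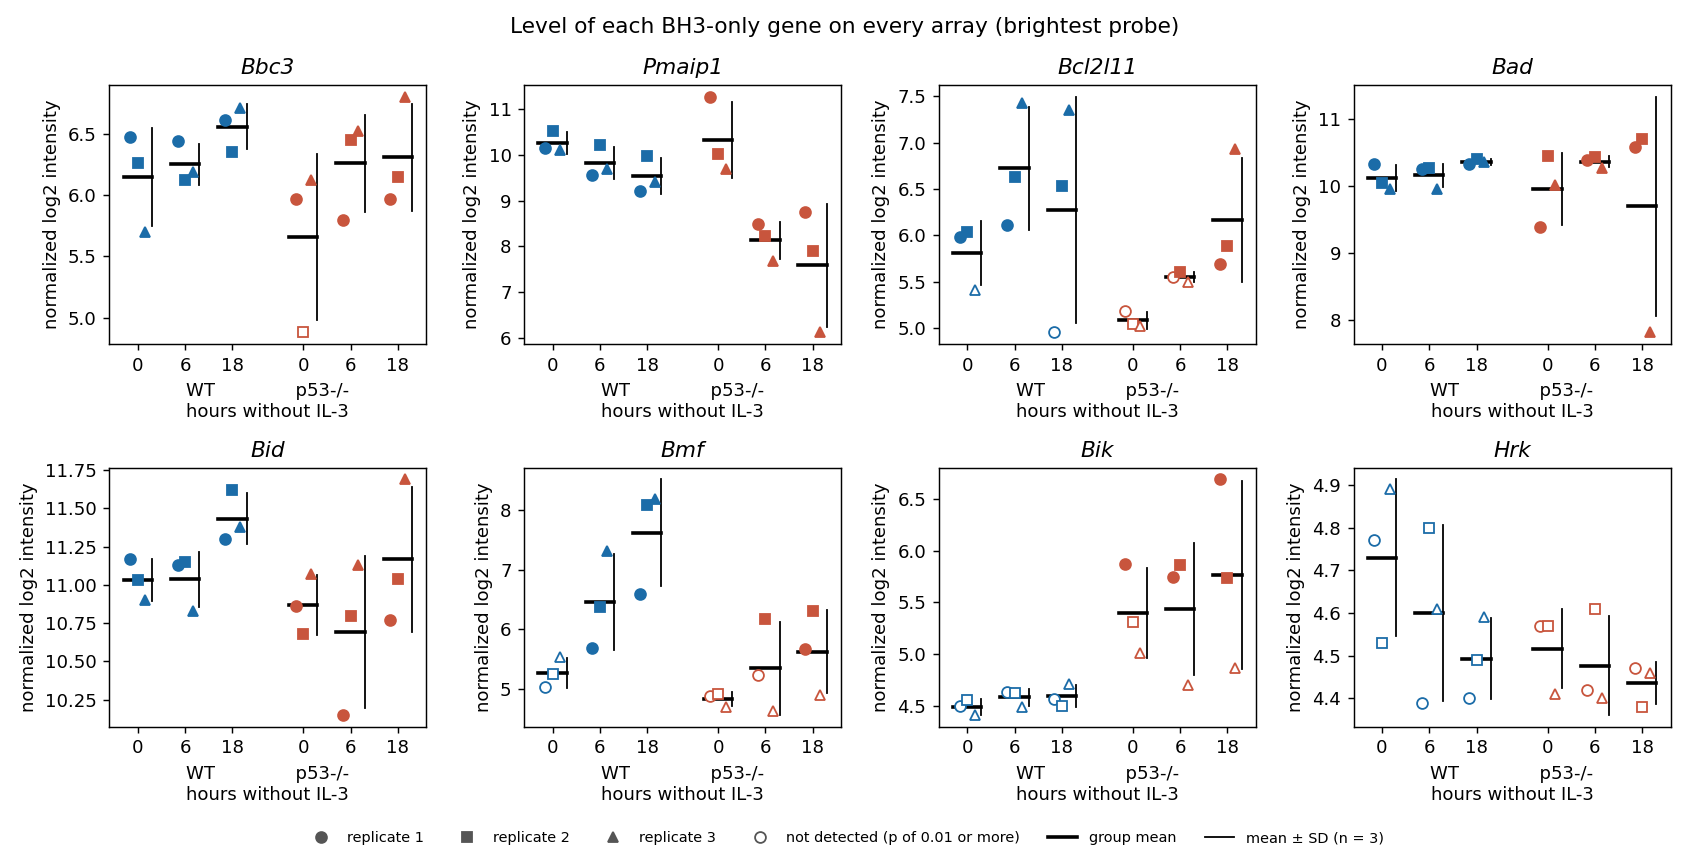
Normalized log2 intensity of the brightest probe of each of the 8 genes on all 18 arrays, by hours without IL-3, with WT in blue and p53-/- in red, 1 symbol shape for each replicate number, open symbols where the probe was not detected, and bars for the group mean ± SD (n = 3). Bmf climbs in WT from 5.03 to 5.53 at 0 h to 6.59 to 8.19 at 18 h, Pmaip1 drops in p53-/- samples from 9.69 to 11.27 at 0 h to 7.69 to 8.49 at 6 h, and Bik has open symbols throughout WT.

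Bcl2l11 encodes BIM, which binds every survival protein of the family. Its brighter probe was detected on 11 of 18 arrays. In WT clones 1, 2 and 3 the log2 level was 5.98, 6.03 and 5.41 at 0 h, 6.11, 6.63 and 7.43 at 6 h, and 4.95, 6.53 and 7.35 at 18 h. All 3 WT clones were higher at 6 h than any at 0 h, and by 18 h the clones had spread apart, with clone 1 undetected and clone 3 still high. The log2 change at 6 h was 0.72, with a standard error of 0.331 and an adjusted p = 0.162. At 18 h it was 0.32, with a standard error of 0.341 and an adjusted p = 0.503, so neither passed. With clone as a block the 6 h change was 0.84 (standard error 0.271, adjusted p = 0.0363, B = -3.16) and failed on B. The 18 h change with the block was 0.42 (adjusted p = 0.232). In p53-/- clones the level was 5.18, 5.04 and 5.02 at 0 h, with the probe undetected on all 3 arrays, 5.55, 5.60 and 5.49 at 6 h, detected in clone 2, and 5.69, 5.88 and 6.93 at 18 h, detected in all 3. The groups at 0 h and 18 h did not overlap. The bound on that difference was at least 1.45-fold. Its 18 h mean counts in full the 6.93 of clone 3, from the array of low intensity (weight 0.0905 in the model). The fitted change was 0.75 (standard error 0.524, adjusted p = 0.454), which did not pass. A bound of this kind sets the mean of the detected group against, on each array of the undetected group, the lowest level among detected probes or the probe's own level, whichever was higher. At 6 h every p53-/- clone was lower than every WT clone, with a log2 difference of -1.09 (standard error 0.37, adjusted p = 0.0456, B = -3.10) that failed on B. At 0 h the difference was -0.85 (adjusted p = 0.251) and at 18 h it was -0.42 (adjusted p = 0.533). The second Bcl2l11 probe lay between 4.46 and 4.97 and was detected on 0 of 18 arrays.

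Bbc3 encodes PUMA, which like BIM binds every survival protein. Its brighter probe was detected on all 9 WT and 8 of 9 p53-/- arrays, and was 6.47, 6.26 and 5.70 in WT clones at 0 h, 6.44, 6.12 and 6.19 at 6 h, and 6.61, 6.35 and 6.71 at 18 h. In p53-/- clones it was 5.97, 4.88 and 6.12 at 0 h, undetected in clone 2, then 5.80, 6.45 and 6.52 at 6 h and 5.97, 6.15 and 6.80 at 18 h. These 6 groups overlapped in time and between genotypes. The largest difference on this probe was that between genotypes at 0 h, -0.55 (95% interval -1.17 to 0.07, adjusted p = 0.241). At 18 h against 0 h the log2 change was 0.26 in WT (95% interval -0.19 to 0.72, adjusted p = 0.368) and 0.44 in p53-/- cells (95% interval -0.27 to 1.14, adjusted p = 0.503). At 6 h the genotypes differed by -0.05 (95% interval -0.55 to 0.44, adjusted p = 0.9), so a difference of over 1 on the log2 scale lay outside the interval there.

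The second Bbc3 probe was detected on 8 of 9 WT and 6 of 9 p53-/- arrays, and on 1 of the 3 p53-/- arrays at 0 h. In WT clones it was 5.76, 6.56 and 4.92 at 0 h, 6.58, 6.33 and 5.82 at 6 h, and 6.26, 6.61 and 6.81 at 18 h. In p53-/- clones it was 5.32, 5.05 and 5.99 at 0 h, 4.99, 5.82 and 6.34 at 6 h, and 6.91, 6.45 and 7.42 at 18 h, where each clone was above all earlier p53-/- values. From 0 h to 18 h the 3 p53-/- clones differed by 1.59, 1.40 and 1.44, and the WT clones by 0.50, 0.04 and 1.89. The fitted log2 change in p53-/- cells, 1.23 (standard error 0.511), starts from a group near the detection limit and missed the threshold at an adjusted p = 0.162. With clone as a block its adjusted p was 0.0353, and it failed on B (-1.98). Between genotypes the change from 0 h to 18 h differed by 0.89 (95% interval -0.41 to 2.18, adjusted p = 0.473).

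Bid encodes a protein that death-receptor caspases cut into its active form. It was detected on all 18 arrays, at 11.17, 11.03 and 10.90 in WT clones at 0 h, 11.13, 11.15 and 10.83 at 6 h, and 11.30, 11.62 and 11.38 at 18 h. Every WT clone at 18 h was above every WT value at 0 h and 6 h, by a log2 change against 0 h of 0.48 (standard error 0.174, adjusted p = 0.0387, B = -3.84) that failed on B. The p53-/- clones had 10.86, 10.68 and 11.07 at 0 h, 10.15, 10.80 and 11.13 at 6 h, and 10.77, 11.04 and 11.69 at 18 h, and these groups overlapped. The p53-/- samples differed from WT by -0.51 at 6 h (adjusted p = 0.0628) and by -0.56 at 18 h (adjusted p = 0.0763), and both failed on B with overlapping groups.

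Pmaip1 encodes NOXA, which binds MCL-1 and A1 in preference to the other survival proteins. It had 2 kept probes, and the brighter was detected on all 18 arrays. In WT clones this probe was 10.15, 10.53 and 10.10 at 0 h, 9.56, 10.22 and 9.70 at 6 h, and 9.22, 9.97 and 9.40 at 18 h. In p53-/- clones it was 11.27, 10.02 and 9.69 at 0 h, 8.49, 8.22 and 7.69 at 6 h, and 8.75, 7.91 and 6.12 at 18 h. The 0 h groups of the genotypes overlapped (log2 difference -0.12, standard error 0.395, adjusted p = 0.889), whereas after IL-3 withdrawal every p53-/- clone was below every WT clone. Ordered by mean level the groups were p53-/- at 0 h (10.33 ± 0.83, SD, n = 3), WT at 0 h (10.26 ± 0.23), WT at 6 h (9.82 ± 0.35), WT at 18 h (9.53 ± 0.39), p53-/- at 6 h (8.13 ± 0.41) and p53-/- at 18 h (7.59 ± 1.34). Neighbours in this order did not differ past the threshold, and the pair of WT at 18 h and p53-/- at 6 h was not compared.

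Within p53-/- cells the log2 change of Pmaip1 at 6 h was -2.02 (standard error 0.42, adjusted p = 0.0193), a 4.06-fold decrease, and it was lower in 3 of 3 clones, by differences from -2.78 to -1.80. At 18 h against 0 h it was -2.07 (standard error 0.448, adjusted p = 0.00992), a 4.21-fold decrease, with -2.52, -2.11 and -3.58 within clones. In each of these comparisons 1 of the 10 member probes was called, that of Pmaip1. Of all kept probes 0.985% were called lower at 6 h and 1.7% in either direction, and at 18 h 2.23% and 3.58%. From 6 h to 18 h the change in p53-/- cells was -0.05 (adjusted p = 0.982). In WT cells, where the clones differed by -0.60, -0.31 and -0.40 at 6 h and by -0.93, -0.55 and -0.69 at 18 h, the change was -0.51 (adjusted p = 0.25) and -0.70 (standard error 0.292, adjusted p = 0.0674). Neither passed, although all WT clones at 18 h lay below those at 0 h. Both calls in p53-/- cells depended on single arrays. The 6 h call was lost without p53-/- clone 1 or 2 at 0 h (-1.58, adjusted p = 0.136 and -2.20, adjusted p = 0.0272) or clone 2 at 6 h (-2.20, adjusted p = 0.0985). The 18 h call was lost without clone 1 or 2 at 0 h (-1.65, adjusted p = 0.0578 and -2.23, adjusted p = 0.0191) or without any of the 3 arrays at 18 h. Those values were -3.27 (adjusted p = 0.258) without clone 1, -2.86 (adjusted p = 0.464) without clone 2 and -1.96 (adjusted p = 0.0142) without clone 3, the array of low intensity.

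At 6 h without IL-3 the level of Pmaip1 in p53-/- cells was below that in WT cells by a log2 difference of -1.63 (standard error 0.317, adjusted p = 0.00211), or 3.08-fold. In this comparison 4.23% of all kept probes were called lower, and both kept Pmaip1 probes were called, being 2 of the 10 member probes. At 18 h the difference was -1.49 (standard error 0.36, adjusted p = 0.00867, B = -0.69), which failed on B, and with clone as a random block it passed at -1.51 (adjusted p = 0.00254). The 6 h call of the brighter probe was lost without WT clone 2 at 6 h (-1.36, adjusted p = 0.0255), or without p53-/- clone 1 (-1.95, adjusted p = 0.0137) or clone 2 (-1.80, adjusted p = 0.0206) at 6 h. Whether the change itself differed between genotypes was tested as an interaction. The change from 0 h to 6 h differed by -1.51 (standard error 0.506, adjusted p = 0.458) and that from 0 h to 18 h by -1.37 (standard error 0.535, adjusted p = 0.18), and neither passed. With clone as a block both passed, the former at -1.87 (standard error 0.28, adjusted p = 0.0383), the latter at -1.71 (standard error 0.299, adjusted p = 0.0076).

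The second Pmaip1 probe was detected on 17 of 18 arrays. In WT clones it was 9.22, 9.53 and 8.75 at 0 h, 8.48, 9.33 and 8.56 at 6 h, and 7.09, 8.26 and 7.67 at 18 h. In p53-/- clones it was 9.40, 7.40 and 7.31 at 0 h, 7.16, 5.87 and 6.03 at 6 h, and 6.68, 6.55 and 4.65 at 18 h, the last undetected. Clones 2 and 3 of the p53-/- cells were thus already low on this probe in IL-3 while clone 1 was not, and the genotypes differed at 0 h by -1.38 (adjusted p = 0.101), which did not pass. At 6 h the difference was -2.45 (standard error 0.427, adjusted p = 0.00102), 5.47-fold, and it was lost without WT clone 2 (-2.08, adjusted p = 0.014) or p53-/- clone 2 (-2.30, adjusted p = 0.0176) at 6 h. In WT cells the change at 18 h was -1.48 (standard error 0.393, adjusted p = 0.00683, B = -1.78), which failed on B and passed with clone as a block (-1.40, adjusted p = 0.00011), as did that from 6 h to 18 h (-1.01, adjusted p = 0.097 without the block and -1.12, adjusted p = 0.0024 with it). In p53-/- cells the changes at 6 h (-1.54, adjusted p = 0.152) and 18 h (-1.45, adjusted p = 0.162) did not pass and did with the block (-1.75, adjusted p = 0.00729 and -1.71, adjusted p = 0.00687). The interaction from 0 h to 18 h was 0.03 on this probe (95% interval -1.50 to 1.56), unlike the -1.37 of the brighter one. The remaining Pmaip1 probe, which was not kept, was detected on 0 of 18 arrays.

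**Figure D2:**
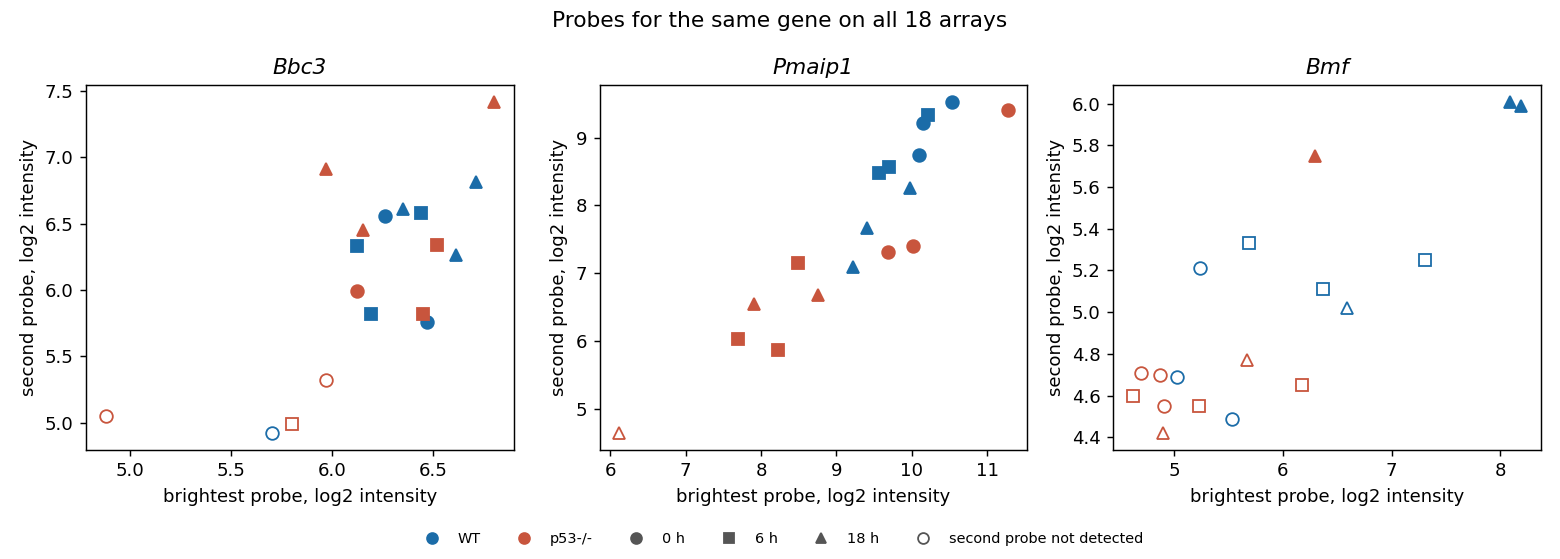
Normalized log2 intensity of the brightest probe (x axis) and the second probe (y axis) of Bbc3, Pmaip1 and Bmf on all 18 arrays, with WT in blue, p53-/- in red, 1 symbol shape for each time point and open symbols where the second probe was not detected. For Pmaip1 the p53-/- samples at 6 h and 18 h lie below and left of the WT samples of the same time, and the second Bmf probe is open on 15 of 18 arrays.

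Bad encodes a protein that survival kinases keep phosphorylated and bound to 14-3-3 proteins. It was detected on all 18 arrays. The WT clones were 10.33, 10.05 and 9.96 at 0 h, 10.25, 10.26 and 9.96 at 6 h, and 10.32, 10.40 and 10.35 at 18 h, a range of under 1 on the log2 scale. For Bad the p53-/- clones gave 9.39, 10.45 and 10.02 at 0 h, 10.38, 10.43 and 10.27 at 6 h, and 10.58, 10.70 and 7.81 at 18 h. The value of 7.81 came from the array of low intensity. Log2 changes over time were 0.11 and 0.30 in WT and 0.42 and 0.59 in p53-/- cells at 6 h and 18 h against 0 h, with adjusted p-values of 0.248 to 0.763, and none passed.

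Bmf encodes a BH3-only protein that is held on the actin cytoskeleton by a dynein light chain. Its brighter probe was undetected on the 3 WT arrays at 0 h, where it was 5.03, 5.24 and 5.53 in clones 1, 2 and 3. In WT cells it was 5.69, 6.37 and 7.31 at 6 h and 6.59, 8.09 and 8.19 at 18 h, and it was detected on all 6 of those arrays. The level was higher in every WT clone at each later time, by 0.66, 1.12 and 1.78 from 0 h to 6 h and by 0.90, 1.73 and 0.88 from 6 h to 18 h. At 18 h Bmf was at least 3.93-fold higher than at 0 h, and the fitted log2 change was 2.48 (standard error 0.375, adjusted p = 7.71e-05). No array at 0 h detected this probe in either genotype. It was therefore kept through arrays without IL-3 alone, and a rise from 0 h was favoured by the filter. In a fit with no filter the 18 h call held. With the filter, this probe stood alone among the members at 18 h. It was the only 1 of the 10 member probes called in WT cells at 18 h against 0 h, where 8.88% of all kept probes were called higher and 18.2% in either direction. At 6 h it was at least 1.75-fold higher, and the change of 1.12 (standard error 0.363, adjusted p = 0.046, B = -2.89) failed on B, as did that from 6 h to 18 h (1.36, standard error 0.392, adjusted p = 0.0217, B = -2.14). With clone as a block both passed, at 1.23 (adjusted p = 0.000726) and 1.36 (adjusted p = 0.000476). The 18 h call failed on B without WT clone 2 at 0 h (2.44, adjusted p = 0.0066) or at 18 h (2.14, adjusted p = 0.0101). It held at 1.09 with no background correction and at 0.55 in the values the authors processed.

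In p53-/- cells the same Bmf probe was 4.87, 4.91 and 4.70 at 0 h, 5.23, 6.18 and 4.62 at 6 h, and 5.67, 6.30 and 4.90 at 18 h. It was detected on 3 of 9 arrays, those of clone 2 at 6 h and of clones 1 and 2 at 18 h, and never in clone 3. At 18 h against 0 h the log2 change of 1.15 (standard error 0.575) missed the threshold with an adjusted p = 0.26. At 18 h every p53-/- clone was below every WT clone, with a log2 difference of -1.77 (standard error 0.462, adjusted p = 0.0133, B = -1.31) that failed on B. It passed without WT clone 1 at 18 h (-2.18, adjusted p = 0.00986) and with median scaling (-1.49, adjusted p = 0.00141). At 0 h the difference was -0.43 (adjusted p = 0.637) and at 6 h it was -0.80 (adjusted p = 0.181). The change from 0 h to 18 h differed between genotypes by -1.33 (standard error 0.686, 95% interval -2.79 to 0.12, adjusted p = 0.312). With clone as a block it was -1.66 (standard error 0.403, adjusted p = 0.028, B = -0.59) and failed on B. A difference between genotypes in the response of Bmf was therefore not called in either fit. The second Bmf probe was detected on 3 of 18 arrays, in WT clones 2 and 3 (6.01 and 5.99) and p53-/- clone 2 (5.75), all at 18 h. Its change in WT cells at 18 h was 0.73 (standard error 0.243, adjusted p = 0.0242), with a bound of at least 1.02-fold, and failed on B.

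Bik, which encodes a BH3-only protein of the endoplasmic reticulum, was undetected on all 9 WT arrays, where it lay between 4.41 and 4.71. In p53-/- clones 1, 2 and 3 it was 5.87, 5.31 and 5.01 at 0 h, 5.75, 5.86 and 4.70 at 6 h, and 6.69, 5.74 and 4.87 at 18 h. It was detected on 5 of 9 p53-/- arrays, 3 of clone 1 and 2 of clone 2, and on none of clone 3, so the clones of 1 genotype differed in it. The p53-/- samples lay above the WT samples at each time. The log2 difference was 0.85 at 0 h (standard error 0.291, adjusted p = 0.0665), which failed on B, 1.08 at 6 h (standard error 0.233, adjusted p = 0.00394), and at 18 h 1.59 (standard error 0.265, adjusted p = 0.000834), and the latter pair passed. Since the probe was kept only because p53-/- arrays detected it, a difference between genotypes was favoured by the filter. In a fit with no filter the 6 h difference was 1.00 (adjusted p = 0.0514) and was not called, and the 18 h call held. That fit also lost the 6 h call of the brighter Pmaip1 probe, which every array detected. The loss therefore does not show the part of the filter in the Bik call. Among all kept probes 3.82% were called higher at 6 h and 3.68% at 18 h, and Bik was the 1 member probe called higher in each. Since WT cells gave only a limit of detection, the bound at 18 h was at least 1.11-fold, and at 6 h no bound above 1 could be given. The erythroid marker sum was 153.3 to 4927 in WT and 17900 to 38090 in p53-/- samples at 6 h. At 18 h it was 193.6 to 7908 and 32150 to 45270, so the ranges did not overlap at either time. Of its 3 markers 0 were called. Its part in the Bik difference was not tested.

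The 6 h call of Bik was the least stable of those made here. It failed on B when any 1 of the 9 WT arrays was left out, at 1.05 to 1.11 (adjusted p = 0.00566 to 0.0213), and it was lost without p53-/- clone 1 (0.68, adjusted p = 0.2) or clone 2 (0.64, adjusted p = 0.228) at 6 h. The 18 h call was lost without WT clone 2 (1.49, adjusted p = 0.0347), p53-/- clone 1 (0.75, adjusted p = 0.583) or p53-/- clone 2 (1.24, adjusted p = 0.329) at 18 h. With no background correction the differences were 0.40 at 6 h and 0.60 at 18 h, and in the values the authors processed they were 0.15 and 0.24. Over time Bik did not pass in p53-/- cells, at 0.29 (adjusted p = 0.71) from 0 h to 6 h and 0.76 (adjusted p = 0.184) from 0 h to 18 h.

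Hrk, which encodes a BH3-only protein known mainly from neurons, had 1 probe, and it was detected on 0 of 18 arrays. Its level lay between 4.39 and 4.89 in WT and between 4.38 and 4.61 in p53-/- samples, and it was not tested.

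**Figure D3:**
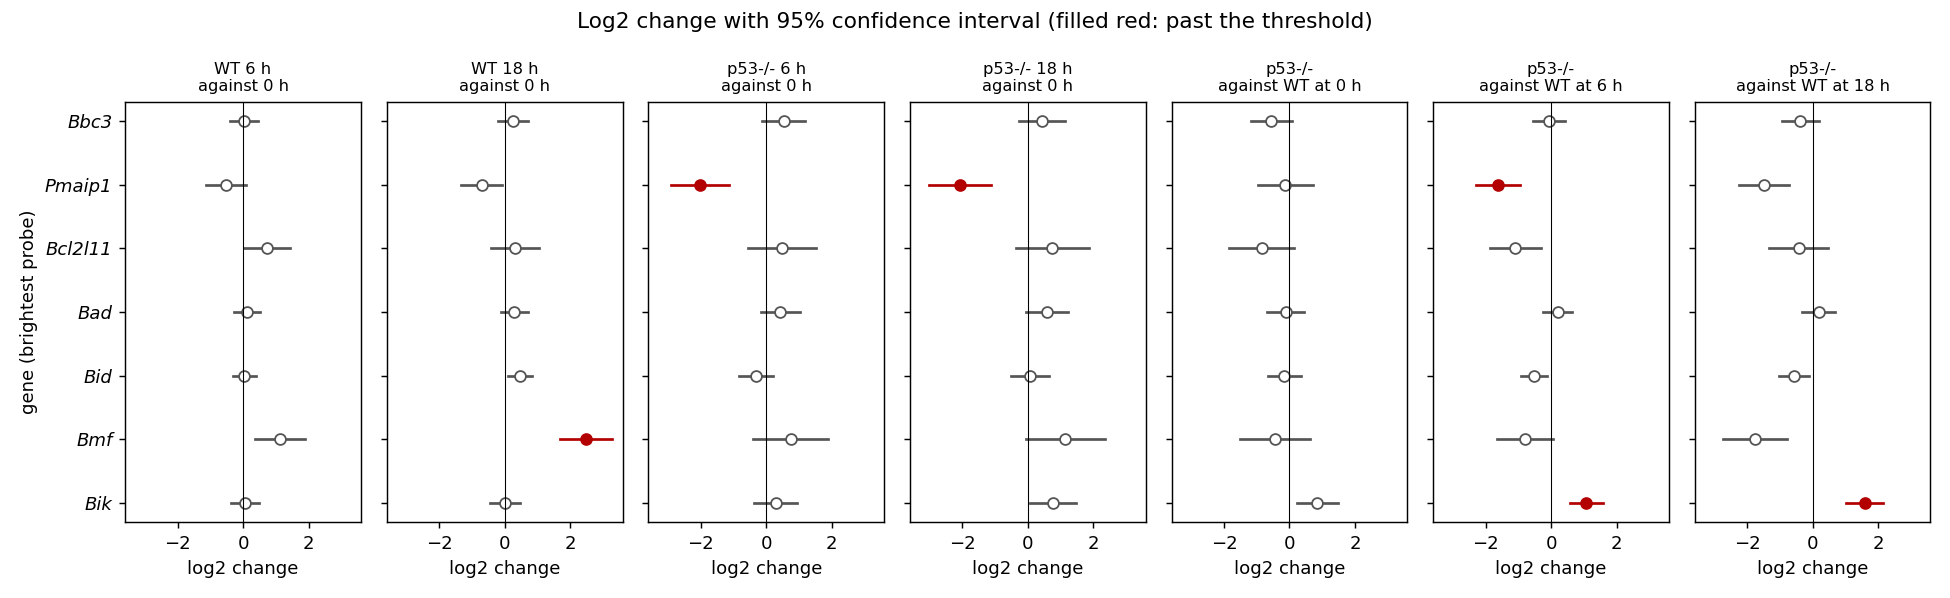
Log2 change of the brightest probe of the 7 genes kept, 1 panel for each of 7 comparisons, with the 95% confidence interval as a line and the changes past the threshold filled in red. The red points are Bmf at 2.48 in WT at 18 h, Pmaip1 at -2.02 and -2.07 in p53-/- cells at 6 h and 18 h and at -1.63 between genotypes at 6 h, and Bik at 1.08 and 1.59 between genotypes at 6 h and 18 h.

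Counts over the 10 member probes were read against the share of all kept probes called. In WT cells at 6 h against 0 h 0 of the 10 member probes were called in limma, with 2 at an unadjusted p under 0.05, while 6.38% of all kept probes were called. From 6 h to 18 h in WT cells the count was 0 of 10, with 4 at an unadjusted p under 0.05 and 8.02% of all probes called. It was 0 of 10 in p53-/- cells from 6 h to 18 h, with 2 at an unadjusted p under 0.05, and 1.47% of all. Between genotypes at 0 h it was 0 of 10, with 2 at an unadjusted p under 0.05 and 4.33% of all, and at 6 h it was 3 of 10 (both Pmaip1 probes and Bik), with 8.05% of all called in either direction. The Pmaip1 probes report the same gene, and Bik, here and at 18 h, was kept through p53-/- arrays alone. Neither count is therefore a measure of excess over its share. At 18 h the count was 1 of 10 (Bik) against 7.43%, or 1590 probes, a number that was 12 without p53-/- clone 1 and 127 without p53-/- clone 2 at 18 h. In the tests of a genotype difference in the change from 0 h to 6 h, 6 h to 18 h and 0 h to 18 h it was 0 of 10 each time, with 1, 0 and 1 at an unadjusted p under 0.05, and 0.014%, 1.27% and 1.31% of all probes were called. The median log2 change over the 7 genes was 0.30 in WT and 0.59 in p53-/- cells at 18 h against 0 h, beside 0.03 and 0.01 over all kept probes. The latter median of 0.59 is the value of Bad, which ran from -0.77 to 0.84 over the alternatives and kept its sign in 25 of 28. The comparisons within a genotype share their 0 h samples, and those between genotypes share samples with both.

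The plot of called changes under each alternative shows how far their size moved, and over 28 alternatives the called changes kept their sign in all 28. Bmf in WT cells at 18 h was called in 26 of 28, Pmaip1 in p53-/- cells at 6 h in 23 and at 18 h in 21, Pmaip1 between genotypes at 6 h in 22 on the brighter and 25 on the second probe, and Bik between genotypes in 11 at 6 h and 23 at 18 h.

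**Figure D4:**
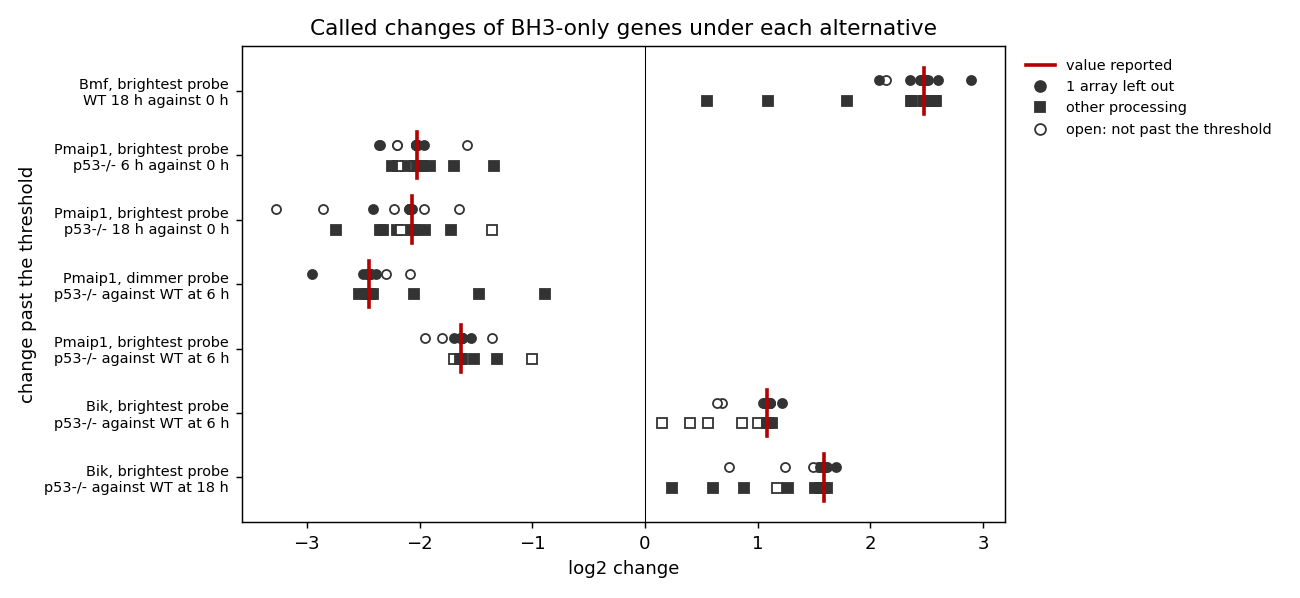
Log2 change of each called result under the alternatives, with the value reported as a red line, circles for fits without 1 array, squares for other processing and open symbols where the change did not pass. Bmf runs from 0.55 to 2.89 and Bik at 6 h from 0.15 to 1.22, and no point lies on the other side of 0 from its red line.

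Other genes of the pathway were taken from lists. Each was tested on its brightest kept probe alone, so a call or its absence below is for that probe. Bcl2, for example, has 8 probes on the array. Of 9 listed survival genes 6 were measured, and in each genotype Bcl2 was the 1 that passed, with log2 changes of -1.57 in WT (adjusted p = 0.000174) and -1.55 in p53-/- cells (adjusted p = 0.0197) at 6 h, and of -1.05 (adjusted p = 0.00147) and -1.88 (adjusted p = 0.00379) at 18 h against 0 h. Among all kept probes 6.38% were called in WT and 1.7% in p53-/- cells at 6 h, and 18.2% and 3.58% at 18 h, so 1 of 6 is close to the WT share at 18 h. At 18 h Bcl2 was lower in p53-/- than in WT cells (-1.63, adjusted p = 0.00097). Mcl1, Bcl2l1 and Bcl2l2, the other survival genes detected on all 18 arrays, did not pass in these comparisons. Of the pore-forming genes 2 of 3 were measured, and Bak1 fell by 0.80 in WT cells at 6 h (adjusted p = 0.00575). Of the 7 apoptosome genes 4 were measured and 0 were called in any of the 12 comparisons, and the same held for 4 of 6 other BH3-like genes, among them Becn1 and Bnip3l. With 0.014% to 18.2% of all kept probes called, counts of 0 in lists this short are near the background.

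Of 10 genes for partners and kinases of BH3-only proteins 7 were measured, and in WT cells at 18 h against 0 h 4 fell and 0 rose, with 9.34% of all kept probes called lower. Dynll1, a dynein light chain that binds BIM, fell by 1.74 (adjusted p = 3.52e-05), and Ywhaq, a 14-3-3 protein, by 1.51 (adjusted p = 1.06e-05). Dynll2, the other dynein light chain listed, was not called there, with WT means of 9.33 at 0 h and 8.98 at 18 h. The kinases Pim1 and Pim2, which phosphorylate BAD, fell by 1.66 (adjusted p = 9.44e-06) and 1.91 (adjusted p = 2.65e-07). Dynll1 was already lower in p53-/- than in WT cells in IL-3 (-1.49, adjusted p = 0.00875), where 4.33% of all kept probes were called in either direction. Its fitted change from 0 h to 18 h differed between genotypes by 2.13 (adjusted p = 0.0256), where 1.31% of all were called. Without p53-/- clone 1 at 18 h that contrast called 0 probes. The plain p53-/- means of Dynll1 were 6.70 ± 0.14 at 0 h and 6.41 ± 1.31 at 18 h (SD, n = 3). At 18 h it was detected on 2 of 3 p53-/- arrays. Pim1 fell by 1.73 in p53-/- cells at 6 h (adjusted p = 0.00542), and Pim2 by 1.43 at 6 h (adjusted p = 0.0029) and by 1.73 at 18 h (adjusted p = 0.000569).

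Of 8 transcription factors known to act on BH3-only genes 6 were measured. Myc fell in both genotypes, with log2 changes of -4.23 in WT (adjusted p = 4.05e-07) and -3.30 in p53-/- cells (adjusted p = 0.00088) at 6 h, and of -3.95 (adjusted p = 1.98e-07) and -3.90 (adjusted p = 0.000209) at 18 h. E2f1, a cell cycle factor, fell by 1.41 in WT cells at 18 h (adjusted p = 6.86e-06), and Ddit3, a stress factor, was higher in p53-/- than in WT cells at 0 h (1.24, adjusted p = 0.00833). On the 1 probe tested for each, neither Foxo3 (4 probes on the array) nor Foxo1 (2 probes) passed in any of the 12 comparisons. Foxo1, named after its values were seen, was at 8.03 ± 0.32, 8.77 ± 0.04 and 9.21 ± 0.04 (SD, n = 3) in WT cells at 0, 6 and 18 h. In p53-/- cells it was at 6.50 ± 1.83, 7.34 ± 1.99 and 7.75 ± 1.65, detected in 2 of 3 clones at each time. FOXO factors are known to be controlled by phosphorylation, which arrays do not measure.

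The genes whose brightest probe followed that of Bbc3 most closely over the 18 arrays were Usp2 (Pearson r = 0.737), Dock8 (0.731), Cnr2 (0.73), Hook3 (0.725) and Heg1 (0.716). For Bcl2l11 they were Sfxn3 (0.774), Rnf169 (0.771), Mllt11 (0.756), Ttc17 (0.748) and Dok3 (0.73). These are the highest of 4798 and 4797 candidate genes, the 18 arrays share 6 clones, and the values are a description.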

How the data were processed

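A total of 18 Illumina MouseWG-6 V1 arrays were used, 3 clones for each of 6 groups, with genotype, time and replicate taken from the labels. The deposited files hold for each probe an intensity, which the authors exported without normalization as far as the values show, and a detection fraction, which the authors' scanner software gave as 1 minus the detection p. The authors' processed log2 values (lumi) have a median of 8.137 on every array and served only as an alternative. The study left out 1 sample that it did not name, and all 18 were kept here.

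Intensities were corrected and quantile-normalized with neqc (offset 16) in limma 3.58.1 (R 4.3.3), 21413 of 46632 probes were kept for a detection p under 0.01 on 1 array or more, and 6 group means were fitted with array weights for 12 comparisons. Calls needed a Benjamini-Hochberg adjusted p of 0.1 or lower and B above 0, after the study's methods. Of the probes 29976 had 1 symbol, 10 several and 16646 none. Signal over background and the number of arrays limit the precision. An exact permutation test of 3 against 3 cannot go below p = 0.1 and was not used. The fit was run on simulated data in which noise was independent between arrays, with no clone effect. That run cannot show how correlation within clones affects the calls. Figures used Python 3.11.15 and matplotlib 3.10.9.

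Replicate numbers were checked as clones. Deviations from group means correlated at 0.276 to 0.756 for the same number within a genotype, at -0.602 to 0.256 for different numbers and at -0.0806 to 0.0808 for the same number across genotypes, so the number was used as a clone within a genotype. Clone is a fixed block for changes over time and a random block (correlation 0.246) between genotypes in the alternative fit. Other alternatives changed the background correction, scaling, filter, weights, threshold, the arrays in the fit, or left out 1 array. All members and their probes were named, with at most 4 genes of each other list by smallest adjusted p and the 5 genes most like Bbc3 and Bcl2l11 among probes with an SD of at least 0.5. The members and lists were chosen with earlier results of these data known.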

Additional observations from a re-analysis of the deposited data

Results flagged for a closer look

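For Bcl2l11 the change from 6 h to 18 h ran in opposite directions in the genotypes. It was -1.16, -0.09 and -0.08 on the log2 scale in WT clones 1, 2 and 3, and 0.15, 0.28 and 1.44 in p53-/- clones. The difference of 0.67 between genotypes did not pass its own test in limma (95% interval -0.52 to 1.86, adjusted p = 0.574). The WT value of clone 1 at 18 h was undetected, and the p53-/- value of clone 3 at 18 h came from the array of low intensity.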

How the results depend on the processing

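Counts of BH3-only genes called, taken over the brightest probe of each gene, depended on the threshold, the weights and the samples. In WT cells at 6 h and from 6 h to 18 h the count of 0 became 1 (Bmf) at an adjusted p of 0.05 without the condition on B, and 1 (Bmf) with the clone block, which also called the second Pmaip1 probe from 6 h to 18 h. At 18 h against 0 h in WT cells 1 became 2 (Bid and Bmf) without the condition on B, where the second probes of Pmaip1 and Bmf also met the limit, and was 0 to 1 without single arrays. In p53-/- cells 1 became 0 at 6 h without array weights or with only the arrays compared, and 0 at 18 h with the authors' values or only the arrays compared, each 0 to 1 without single arrays. Between genotypes at 6 h, 2 became 3 (with Bcl2l11) without the condition on B, 1 with no background correction, an offset of 50 or only the arrays compared, and 0 with no filter, no weights or the authors' values (0 to 2 without single arrays). At 18 h, 1 became 3 with median scaling or without the condition on B, 2 with the block, and 0 without weights or with only the arrays compared (0 to 2 without single arrays). With the block 1 (Pmaip1) was called for the genotype difference in the change from 0 h to 6 h, and 1 for that to 18 h. The block changed no call of a member probe beyond those given for Bmf and Pmaip1. Of the log2 changes 526 kept their side of the threshold, 17 gained and 45 lost it, and 0 of these reversed. Over all kept probes the count called in WT cells at 18 h against 0 h was 3903, 1457 to 3947 without an array and 1316 to 8419 under other settings, and in p53-/- cells it was 766, 2 to 762 and 350 to 1853. Without p53-/- clone 1 at 18 h the counts were 0 in p53-/- cells from 6 h to 18 h (314 with all arrays) and 0 for the genotype differences in the change to 18 h (271 from 6 h and 280 from 0 h), and 12 between genotypes at 18 h (1590). Median scaling moved the share of higher calls in WT cells at 6 h from 40.2% to 30.1%. Members near the detection limit (Bcl2l11, Bmf, Bik) are limited by signal over background. The causes were not tested.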
